A study of Mus musculus with 24 samples.

Results

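The mitosis genes described here are 40 genes whose products carry a cell into, through and out of mitosis. They were listed by function and were found on the arrays by the gene name of their probes or an older synonym, such as Cdc2a for Cdk1. All 40 had a probe, out of 18430 protein-coding genes that the array represents. They had 67 probes together, 1 probe for 19 genes, 2 for 15 genes and 3 for 6 genes. The brightest probe stands for its gene, and in every group it was well above background on all 3 arrays, so that all 40 genes were tested and none of the changes below is only a bound. Every order of size below is among these 40 probes, and dimmer probes of some genes gave other sizes.

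The arrays measured transcript levels in immortalized mouse embryonic fibroblasts (MEFs) that lack Ku70, the product of Xrcc6 and a subunit of the complex that joins broken DNA ends. The Ku70-/- genotype was shared by every group, controls included, so the arrays show how these deficient cells responded and not what the deletion did. The study asked how bisphenol A (BPA), a plasticizer, changes the response to potassium bromate (KBrO3), which oxidizes DNA bases. A first set of 15 arrays held 5 groups and a second set of 9 arrays held 3 groups, with 3 biological replicates in each.

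The groups of the first set were untreated cells, cells given 20 mM KBrO3 for 1 hr and then medium for 3 hr or 23 hr, and co-exposed cells. Co-exposed cells had 150 μM BPA for 1 hr, both agents for 1 hr, and BPA for the remaining 3 hr or 23 hr, and are called KBrO3 + BPA. These samples are referred to as 4 hr and 24 hr, counted from the start of KBrO3. The second set held its own untreated cells and cells kept in 150 μM BPA alone to 4 hr or 24 hr by the labels, whereas the Methods give 1 hr more. By the labels, the controls of the first set belong to 4 hr and no 24 hr control was hybridized, so time in culture and treatment cannot be told apart where a 24 hr group is set against control. For the controls of the second set no time is given.

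Mitosis starts when cyclin B and its kinase Cdk1 are switched on by Cdc25 phosphatases, and it ends when the anaphase-promoting complex marks cyclin B and securin for destruction. Most genes of this machinery are transcribed in G2 and M phase and are silent in resting cells. Their promoters often carry a CHR element, TTTGAA or TTCGAA, near the transcription start, together with CCAAT boxes that bind NF-Y. Through these elements the DREAM complex keeps the genes off, and the B-Myb and FoxM1 complexes turn them on. After DNA damage, p53 and its target p21 (Cdkn1a) favor the repressed state. In a bulk sample, fewer cells in G2 or mitosis and less RNA per cell cannot be told apart.

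Promoters were read from RefSeq for the build GRCm38.p6, which held a window from 250 bases before to 50 bases after the start for 34 of the 40 genes. Both strands were searched, and TTCGAA, which is its own reverse complement, was counted once. TTTGAA was present in 24 of the 34 windows (70.6%) against 20.2% of 27025 genes with a window. TTCGAA was present in 4 of the 34 (11.8%) against 1.8%, and CCAAT in 26 of the 34 (76.5%) against 41.1%. Windows with a CCAAT and either CHR form numbered 23 (67.6%) against 9.65% of all genes. Counting only CHR matches between 100 bases before the start and the end of the window, 25 of the 34 (73.5%) held one against 9.87%. A match is a description of the letters and not of binding.

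Of these promoters, 6 are printed as examples that differ in their elements, all of genes described below by their values on the arrays, each as the 250 bases before the start, 5′ to 3′ on the strand of the gene. Capitals mark the CCAAT box and the 2 forms of the CHR, on either strand. The first are Ccnb1 at chr13:100786487-100786736 (minus strand), with CCAAT 99 and 67 bases before the start and neither CHR form in its window, and Plk1 at chr7:122159185-122159434 (plus strand), with 1 CCAAT 14 bases before the start and 1 TTTGAA match in the rest of its window, past the printed bases.
Ccnb1: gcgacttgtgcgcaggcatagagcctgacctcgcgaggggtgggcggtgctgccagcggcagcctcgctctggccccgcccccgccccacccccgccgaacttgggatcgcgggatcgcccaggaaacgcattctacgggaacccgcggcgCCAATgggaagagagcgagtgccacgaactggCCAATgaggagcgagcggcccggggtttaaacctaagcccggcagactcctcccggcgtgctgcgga
Plk1: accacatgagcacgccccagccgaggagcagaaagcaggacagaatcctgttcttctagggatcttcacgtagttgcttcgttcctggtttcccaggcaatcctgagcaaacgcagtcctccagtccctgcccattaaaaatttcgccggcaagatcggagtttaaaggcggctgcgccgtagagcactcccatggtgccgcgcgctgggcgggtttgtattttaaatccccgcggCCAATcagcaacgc
Cdc20 at chr4:118437344-118437593 (minus strand) had TTTGAA 18 bases before the start and CCAAT 53 and 8 bases before it, and Ube2c at chr2:164769679-164769928 (plus strand) had TTTGAA on the other strand, as TTCAAA, 29 bases before the start and 6 CCAAT boxes.
Cdc20: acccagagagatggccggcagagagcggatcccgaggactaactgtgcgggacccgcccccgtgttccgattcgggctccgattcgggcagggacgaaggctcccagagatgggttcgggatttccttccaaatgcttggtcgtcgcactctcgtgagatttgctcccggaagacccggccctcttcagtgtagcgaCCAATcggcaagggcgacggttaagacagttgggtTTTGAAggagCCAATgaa
Ube2c: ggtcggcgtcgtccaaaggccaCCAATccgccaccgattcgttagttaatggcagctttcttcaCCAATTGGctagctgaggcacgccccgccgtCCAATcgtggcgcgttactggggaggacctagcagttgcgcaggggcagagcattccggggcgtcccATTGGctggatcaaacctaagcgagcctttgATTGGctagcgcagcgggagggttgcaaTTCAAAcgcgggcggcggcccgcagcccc
Cdk1 at chr10:69352913-69353162 (minus strand) had TTTGAA 71 and 15 bases before the start and 3 CCAAT boxes, and Top2a at chr11:99024190-99024439 (minus strand) had TTTGAA 179 bases and TTCAAA 23 bases before it and TTCGAA 140 and 120 bases before it, with 6 CCAAT boxes.
Cdk1: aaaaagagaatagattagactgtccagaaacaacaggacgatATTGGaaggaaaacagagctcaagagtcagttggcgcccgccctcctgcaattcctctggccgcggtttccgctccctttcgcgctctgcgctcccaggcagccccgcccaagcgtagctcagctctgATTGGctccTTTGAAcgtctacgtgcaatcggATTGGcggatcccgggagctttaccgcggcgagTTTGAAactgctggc
Top2a: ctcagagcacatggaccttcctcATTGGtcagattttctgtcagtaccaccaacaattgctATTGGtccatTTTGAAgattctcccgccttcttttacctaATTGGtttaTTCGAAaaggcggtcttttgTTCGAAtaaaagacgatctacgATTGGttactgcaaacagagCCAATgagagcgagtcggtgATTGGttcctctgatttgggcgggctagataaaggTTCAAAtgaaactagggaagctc
With KBrO3 at 4 hr, the median difference from control was −0.80 in log2 units for the 23 genes with both kinds of element and −0.98 for the other 11 genes with a window, and at 24 hr the medians were 0.67 and 0.62.

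Levels are log2 intensities relative to the 75th percentile of the same array, so that 0 is the level exceeded by 1 spot in 4 and a difference of 1 is a 2-fold change. A level of one gene is not comparable with that of another, because probes differ in brightness. Of the spots on a first-set array, 57.7% to 68.1% were well above background, and of those on a second-set array 76.4% to 79.4%. The median residual SD was 0.107 over the probes tested in the first set and 0.340 over those of the second. For the 40 mitosis genes the medians were 0.0625 and 0.234, so smaller changes could pass the test in the first set. Replicates of a first-set group mostly shared a slide, so that spread holds little of the variation between slides. For Xrcc6, control cells gave 0.10 ± 0.10 (SD, n = 3) on first-set arrays and −0.07 ± 0.26 on second-set arrays, near the 75th percentile. Its means in the first set ranged from −0.58 with KBrO3 at 4 hr to 0.51 with co-exposure at 24 hr. The loss of Ku70 cannot be checked from these levels, since no array held wild-type cells. Of 14 fibroblast markers, 13 were well above background on all arrays of the first set and 14 on all arrays of the second. Their summed level (log2) was 10.97 to 11.06 in the first set's controls, 10.85 to 10.92 with KBrO3 at 4 hr and 9.61 to 9.79 at 24 hr, and with co-exposure 10.52 to 10.55 at 4 hr and 9.09 to 9.31 at 24 hr. All 14 were significantly lower than control in both 24 hr groups, where 38.1% (KBrO3) and 38% (co-exposure) of all genes tested were lower. Summed leukocyte markers were −1.91 to −1.53 in these controls. With KBrO3 they were −0.34 to −0.15 at 4 hr and −1.30 to −0.99 at 24 hr. With co-exposure they were −0.57 to −0.55 at 4 hr and −0.94 to −0.77 at 24 hr. Of the 7 leukocyte markers, 3 were well above background on all first-set arrays and 4 on all second-set arrays. In the first set 4 were tested, and 3 of them were higher than control in both 4 hr groups, against 34.5% (KBrO3) and 39.7% (co-exposure) of all genes. Only Ptprc, which defines leukocytes, was well above background on 0 of 24 arrays. Of 8 epithelial, 5 endothelial and 7 skeletal muscle markers, 3, 1 and 0 were well above background on all first-set arrays, and 5, 2 and 3 on all second-set arrays. The endothelial markers Pecam1 and Tie1 and the muscle markers Des and Myh3 were above it on 0 of 24 arrays, and the epithelial markers Cdh1 and Cldn4 on none of the 15 first-set arrays. In the first set the summed epithelial level was −1.67 to −1.32 in controls, −1.36 to −1.001 in the 4 hr groups and −2.25 to −1.47 in the 24 hr groups, the endothelial level −3.18 to −2.73, −2.55 to −2.18 and −3.43 to −2.48, and the muscle level −3.60 to −3.29, −2.93 to −2.56 and −4.33 to −3.48. The part of these shifts in the results below was not tested.

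At 4 hr after KBrO3, the mitosis genes were low in nearly every functional class. Of the 40 genes, 36 were significantly lower than in untreated cells (adjusted p below 0.05) and none was higher, in a comparison where 38.2% of the 14097 genes tested were lower and 34.5% higher. The median difference was −0.79, a 1.72-fold lower level, beside 0.02 over all genes tested. At the thresholds of the Methods, a Bonferroni-adjusted p below 0.01 and a change beyond 1.5-fold, 19 of the 40 were lower and none higher, against 31.2% of all genes in either direction. The controls of the first set enter each comparison of KBrO3 or KBrO3 + BPA with control, so those comparisons are not independent of each other.

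**Figure D1:**
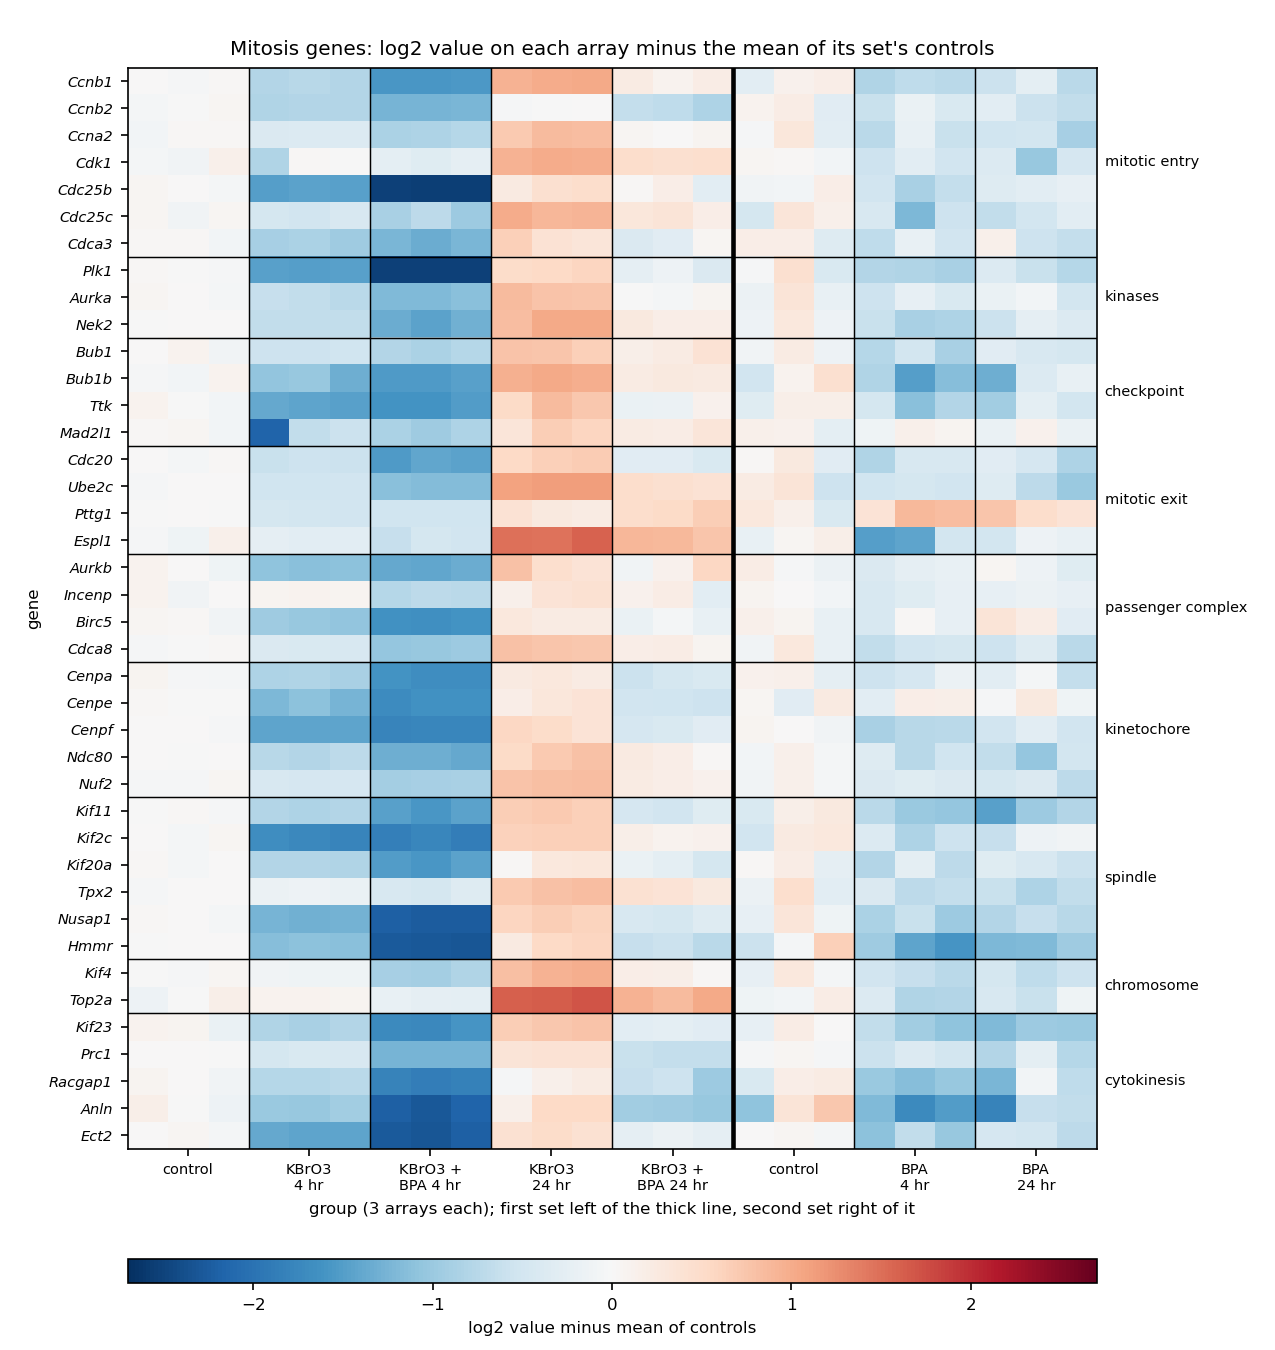
Heat map of the 40 mitosis genes (rows, grouped by role) on the 24 arrays (columns, grouped by treatment), where color is the log2 value minus the mean of the controls of the same set. The KBrO3 and KBrO3 + BPA arrays at 4 hr are blue (below control) for most genes, deepest for Cdc25b and Plk1 with KBrO3 + BPA, and the KBrO3 arrays at 24 hr are red (above control), most of all for Top2a and Espl1.

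The genes that trigger mitotic entry fell, with 1 exception. Plk1, the polo-like kinase that promotes entry and spindle assembly, read 3.74, 3.70 and 3.68 in controls and 2.25, 2.23 and 2.25 with KBrO3, a difference of −1.47 ± 0.05 (SE; adjusted p = 1.57e-10). Cdc25b, a phosphatase that starts Cdk1 activation, read 3.47, 3.44 and 3.38 in controls and 1.94, 2.00 and 1.96 with KBrO3, a difference of −1.46 ± 0.10 (adjusted p = 2.58e-08). Ccnb1, the mitotic cyclin B1, read 1.36, 1.32 and 1.39 in controls and 0.55, 0.61 and 0.56 with KBrO3, a difference of −0.78 ± 0.04 (adjusted p = 3.78e-09). In all 3 genes every treated array lay below every control array, 2.77-fold, 2.76-fold and 1.71-fold by the means. Here and below, such non-overlap describes the readings and is not a further test. Its share over all genes is not given. Cdk1, the partner kinase of cyclin B, read 3.16, 3.11 and 3.34 in controls and 2.40, 3.23 and 3.20 with KBrO3, so the groups overlapped and the difference of −0.26 (95% interval −0.63 to 0.11, adjusted p = 0.180) did not pass the test. The low reading came from replicate 1, without which the difference in means was 0.0088. The same array was low for Mad2l1, a spindle checkpoint protein, at −1.07 beside 0.41 and 0.50, and its difference of −1.14 (adjusted p = 0.0055) became −0.63 in means without it.

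The largest drop among the 40 probes used was in Kif2c, the kinesin that corrects faulty microtubule attachments at centromeres. It read −0.30, −0.37 and −0.25 in controls and −1.99, −2.06 and −2.09 with KBrO3, a difference of −1.74 ± 0.05 (adjusted p = 7.52e-12), or 3.34-fold. All 6 genes of spindle assembly fell, from −0.16 for Tpx2, which nucleates spindle microtubules, to Kif2c. All 4 checkpoint genes fell, with −1.43 for Ttk, the Mps1 kinase, and −1.14 for Bub1b, the BubR1 inhibitor of Cdc20. All 5 kinetochore genes fell, with −1.42 for Cenpf, a transient kinetochore protein, and −1.20 for Cenpe, the kinesin that brings chromosomes to the plate. Cytokinesis genes fell as well, all 5 of them, led by Ect2, the exchange factor that activates RhoA at the midzone, at −1.41.

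Smaller changes were seen among the genes of mitotic exit and chromosome structure. Cdc20, which activates the anaphase-promoting complex, read 4.79, 4.73 and 4.81 in controls and 4.18, 4.21 and 4.20 with KBrO3, a difference of −0.58 ± 0.05 (adjusted p = 5.13e-07). Aurka, the Aurora A kinase of the spindle poles, read 4.19, 4.15 and 4.10 in controls and 3.52, 3.49 and 3.42 with KBrO3, a difference of −0.67 ± 0.05 (adjusted p = 7.51e-08). For these 2 genes the groups did not overlap. The 4 genes of mitotic exit fell by 0.27 (Espl1, separase) to 0.58 (Cdc20) on the log2 scale. Top2a, the topoisomerase that untangles sister chromatids, read 1.31, 1.45 and 1.61 in controls and 1.55, 1.55 and 1.53 with KBrO3, overlapping groups with a difference of 0.08 (adjusted p = 0.279). A second Top2a probe, described below, was lower than control and passed the test. Kif4, a chromosome-bound kinesin, differed by −0.10 and Incenp, the scaffold of the chromosomal passenger complex, by 0.08, and neither passed the test. The other 3 passenger genes, Aurkb, Birc5 and Cdca8, fell by 1.11, 1.02 and 0.41 on the log2 scale.

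At 24 hr after KBrO3, the mitosis genes stood above control. Of the 40 genes, 37 were significantly higher and none lower, in a comparison where 31.3% of all genes tested were higher and 38.1% lower. Their median lay 0.63 above control, a 1.54-fold higher level, beside −0.07 over all genes. At the Methods' thresholds, 19 were higher and none lower, against 20% of all genes in either direction. As stated above, these cells were also in culture longer than the control cells may have been. Ccnb2, Mad2l1 and Racgap1 did not pass the test.

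Top2a stood highest. It read 3.08, 3.09 and 3.15 at 24 hr, above the 3 controls given before, a difference of 1.65 ± 0.07 (adjusted p = 7.33e-10), or 3.13-fold. Espl1 read 0.71, 0.63 and 0.89 in controls and 2.23, 2.22 and 2.33 at 24 hr, a difference of 1.52 ± 0.07 (adjusted p = 2.45e-09). Ube2c, the conjugating enzyme of the anaphase-promoting complex, read 2.87, 2.92 and 2.92 in controls and 4.00, 4.04 and 4.03 at 24 hr, a difference of 1.12 ± 0.03 (adjusted p = 7.09e-11). These 3 genes rose 3.13-fold, 2.86-fold and 2.17-fold with no overlap between the groups. Ccnb1 read 2.29, 2.35 and 2.38 and rose by 0.99 ± 0.04 (adjusted p = 1.11e-09). Cdk1 read 4.15, 4.21 and 4.19 and rose by 0.98 ± 0.17 (adjusted p = 0.000245), with a residual spread that is pooled over the set and includes the 4 hr arrays. By the probes used, the 2 genes of the entry kinase were thus 1.98-fold (Ccnb1) and 1.97-fold (Cdk1) higher, with no overlap between the groups. A second Cdk1 probe, described below, gave a smaller rise that did not pass the test.

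The kinases rose as well, Nek2, which splits the centrosomes, by 0.96. Aurka read 5.01, 4.91 and 4.89 and rose by 0.79 ± 0.05 (adjusted p = 3.27e-08). Plk1 read 4.21, 4.25 and 4.29 and rose by 0.54 ± 0.05 (adjusted p = 2.90e-06). Cdc20 read 5.31, 5.42 and 5.46 and rose by 0.62 ± 0.05 (adjusted p = 5.03e-07). No array of these genes at 24 hr overlapped the controls. By class, the median difference was 0.80 for the 7 entry genes, 0.79 for the 3 kinases, 0.71 for the 4 checkpoint genes, 0.87 for the 4 exit genes and 0.63 for the 6 spindle genes. It was 0.48 for the 5 kinetochore genes, 0.42 for the 4 passenger genes and 0.40 for the 5 cytokinesis genes, of which 4 rose. The 2 chromosome genes, Kif4 and Top2a, had the highest median of any class, 1.28. Ccnb2, the second B-type cyclin, read 4.13, 4.17 and 4.23 in controls and 4.15, 4.18 and 4.20 at 24 hr, a difference of −0.01 (95% interval −0.12 to 0.10).

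The 2 times after KBrO3 were also compared directly, without control arrays. Of the 40 genes, 39 were higher at 24 hr than at 4 hr and none was lower, where 34% of all genes tested were higher and 43.8% lower. Their median rose by 1.44, and 36 genes passed the Methods' thresholds against 29.7% of all genes. Kif2c differed most (2.37), followed by Ttk and Bub1b (2.13 each) and Plk1 (2.01). Incenp differed by 0.23 and did not pass the test.

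Co-exposure at 4 hr gave the lowest group mean of the first set for each of these genes but Mad2l1, which was lowest with KBrO3 at 4 hr. Against control, 39 of the 40 were significantly lower and none higher, in a comparison where 40.7% of all genes were lower and 39.7% higher. In the median they stood at −1.37 from control, a 2.58-fold lower level, beside 0.01 over all genes. At the Methods' thresholds 32 were lower, against 35.9% of all genes in either direction. Cdk1, which read 2.94, 2.88 and 2.97, was the exception at −0.27 (adjusted p = 0.154). Its co-exposed arrays all lay below its controls, and the residual spread behind the test is pooled over the set, with an SD of 0.470 in the KBrO3 4 hr group that holds the low array and 0.121 and 0.0425 in the control and co-exposed groups.

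With BPA added to KBrO3, 34 of the 40 genes were significantly lower at 4 hr than with KBrO3 alone and none was higher, where 32.7% of all genes were lower and 28.1% higher. The KBrO3 4 hr arrays all shared a slide and the co-exposed 4 hr arrays another, so slide and treatment cannot be told apart here. The median difference was −0.60, or 1.52-fold, beside −0.02 over all genes, and 18 genes passed the Methods' thresholds against 5.99% of all genes. With normexp, another background correction, 20 rather than 34 were lower and none higher. Every entry gene but Cdk1, all 3 kinases and all 5 genes each of the kinetochore and cytokinesis classes were lower. Of the 4 checkpoint genes, 2 were lower, and the median of the 4 was −0.21. Kif2c (−0.08), Pttg1 (−0.04), Ttk (−0.15), Aurkb (−0.27), Mad2l1 (0.25) and Cdk1 (−0.01) did not pass the test. Without KBrO3 4 hr replicate 1, which was low for both, the differences in means were −0.26 for Mad2l1 and −0.28 for Cdk1.

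**Figure D2:**
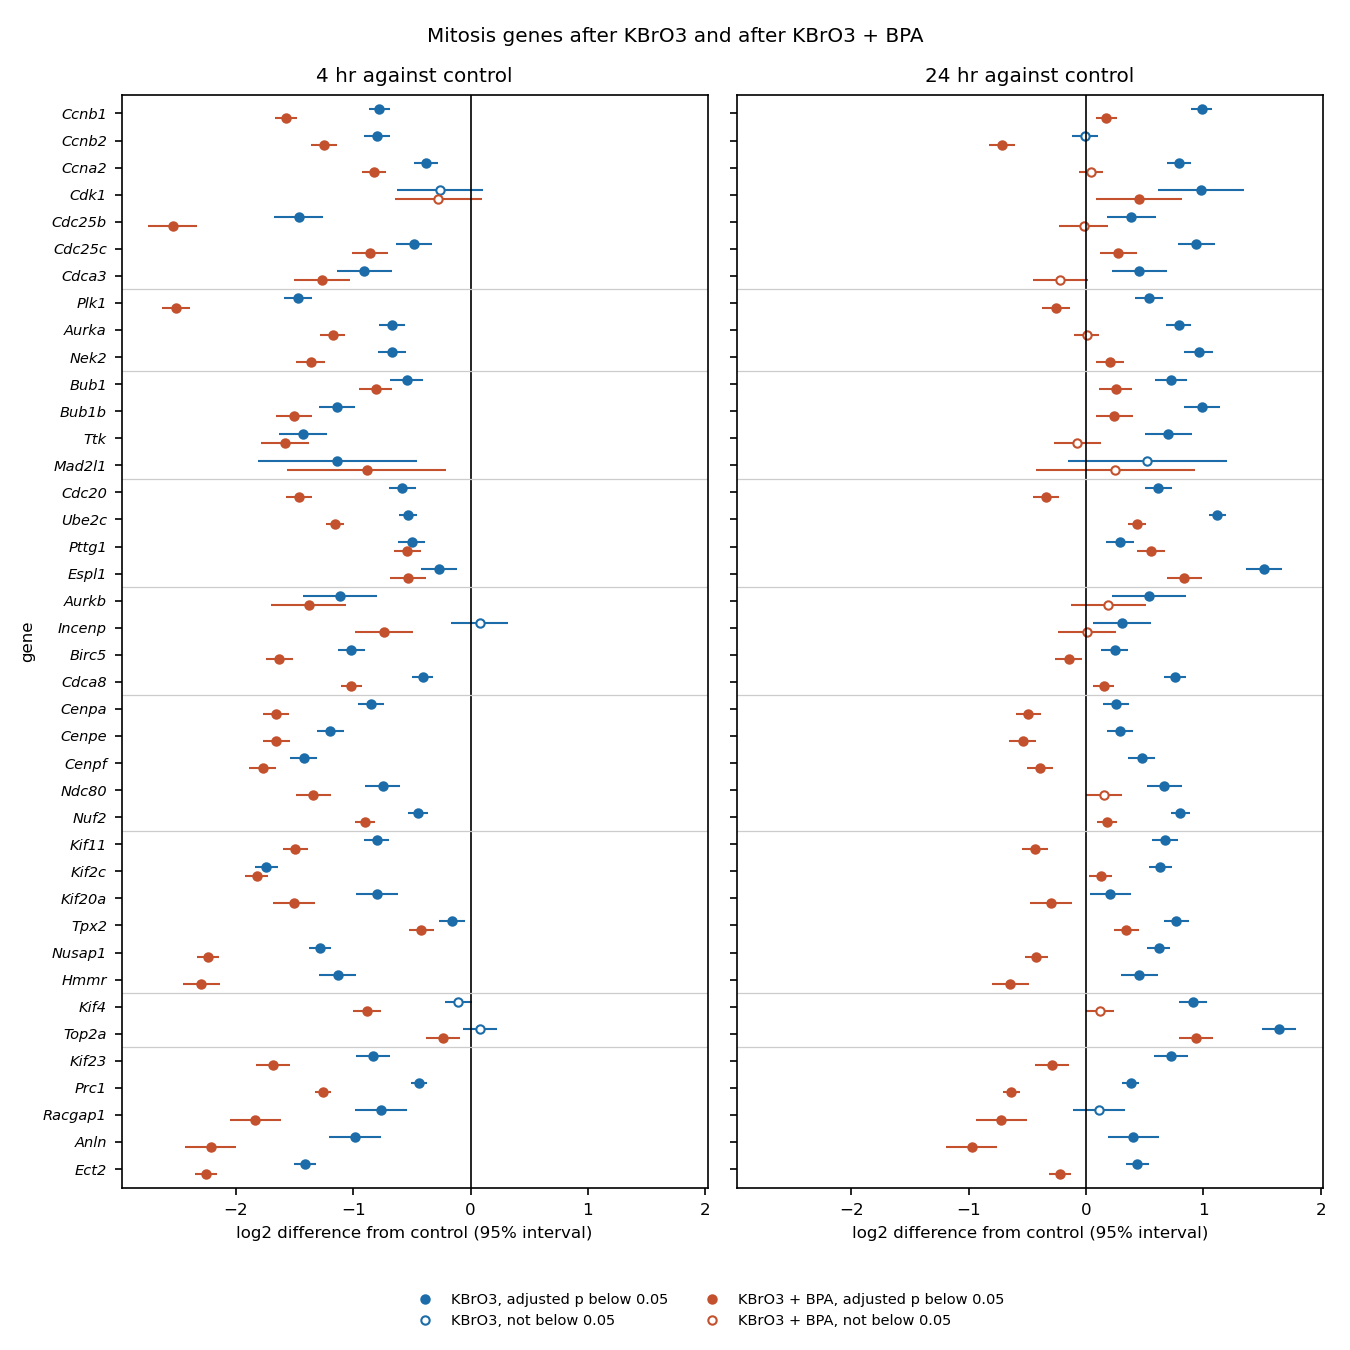
Log2 differences from control for each of the 40 mitosis genes after KBrO3 (blue) and KBrO3 + BPA (red) at 4 hr (left) and 24 hr (right), with bars for the 95% interval, filled points for an adjusted p below 0.05, open points for the others and grey lines between the classes. At 4 hr nearly all points lie below 0 and those of KBrO3 + BPA lie farther left for most genes, whereas at 24 hr the KBrO3 points lie above 0 and the KBrO3 + BPA points lie on both sides of it.

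Cdc25b and Plk1 showed the largest drops against control at 4 hr of co-exposure among the 40 probes used. Cdc25b read 0.91, 0.88 and 0.88, a difference of −2.54 from control (5.81-fold, adjusted p = 1.30e-10) and of −1.07 from KBrO3 alone (adjusted p = 2.93e-06). Plk1 read 1.20, 1.19 and 1.20, a difference of −2.51 from control (5.70-fold, adjusted p = 1.37e-12) and of −1.04 from KBrO3 alone (adjusted p = 5.97e-08). Hmmr, a spindle microtubule-binding protein, read −1.67, −1.65 and −1.64 in controls, −2.80, −2.77 and −2.78 with KBrO3 and −3.93, −3.94 and −3.97 with co-exposure, which was 4.90-fold below control and −1.16 from KBrO3 alone (adjusted p = 1.97e-07). The 3 groups did not overlap for any of these genes, and stood in the order control, KBrO3, KBrO3 + BPA. Anln, the anillin scaffold of the contractile ring, differed most from KBrO3 alone, with −0.66, −0.68 and −0.60 after KBrO3 and −1.88, −1.94 and −1.81 after co-exposure, a difference of −1.23 ± 0.10 (adjusted p = 1.47e-06).

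The same order held for Ccnb1, Cdc20 and Aurka. Ccnb1 read −0.23, −0.22 and −0.21 with co-exposure, 2.97-fold below control and −0.79 ± 0.04 from KBrO3 alone (adjusted p = 5.49e-08). Cdc20 read 3.25, 3.38 and 3.32, 2.75-fold below control and −0.88 ± 0.05 from KBrO3 alone (adjusted p = 1.40e-07). Aurka read 2.95, 2.95 and 3.01, 2.26-fold below control and −0.51 ± 0.05 from KBrO3 alone (adjusted p = 5.37e-06). The Top2a probe used was at 0.08 from control with KBrO3 alone, where a second probe was at −0.61 and passed the test. The probe used read 1.25, 1.21 and 1.20 with co-exposure, −0.24 from control (adjusted p = 0.00575) and −0.32 from KBrO3 alone (adjusted p = 0.00148).

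**Figure D3:**
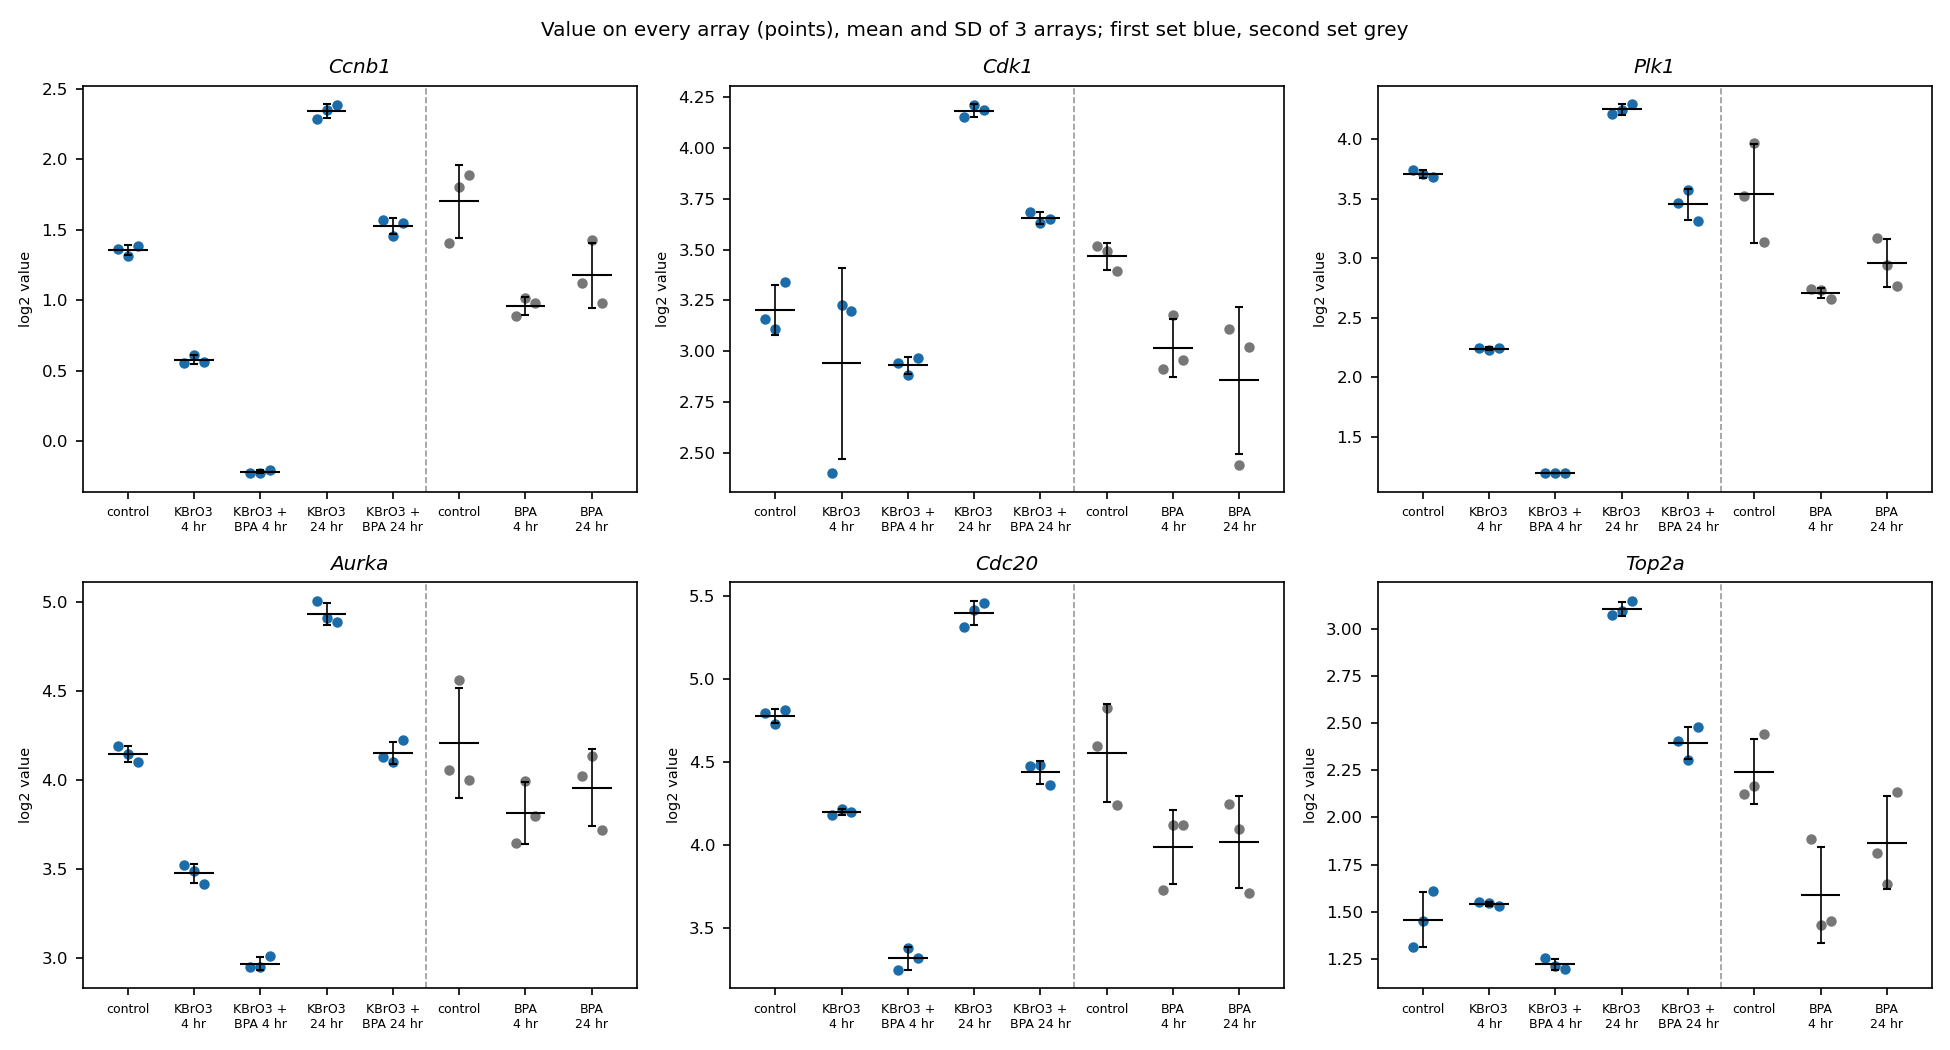
Log2 values of Ccnb1, Cdk1, Plk1, Aurka, Cdc20 and Top2a by group, with points for the 24 arrays (first set blue, second set grey) and bars for the mean and SD of the 3 arrays of a group, each panel on its own axis. Plk1 and Ccnb1 stand in the order control, KBrO3, KBrO3 + BPA at 4 hr with no overlap, and Cdk1 has 1 KBrO3 array at 2.40 apart from the other 2.

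At 24 hr of co-exposure the mitosis genes were spread on both sides of control. Of the 40, 14 were significantly higher and 16 lower, in a comparison where 34.5% of all genes tested were higher and 38% lower, and the median difference was 0.01. At the Methods' thresholds only 2 were higher and 2 lower, against 23.7% of all genes in either direction. The split between higher and lower genes moved with the scaling, with 19 higher and 5 lower when arrays were scaled to their median, 16 higher and 15 lower after quantile normalization, 14 and 7 with normexp and 8 and 15 with slide as a random block. The shares of the 40 were near those of all genes. By class, 3 of 4 exit genes and 3 of 7 entry genes were higher, and all 5 cytokinesis genes and 4 of 6 spindle genes were lower, with no test between classes.

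Top2a and Espl1 were the 2 higher genes past the Methods' thresholds. Top2a read 2.40, 2.31 and 2.48, or 0.94 above control (1.92-fold, adjusted p = 8.07e-08). Espl1 read 1.64, 1.63 and 1.48, or 0.84 above control (1.79-fold, adjusted p = 3.67e-07). Pttg1, the securin that holds separase back, was the third in size at 0.55 (adjusted p = 1.42e-06), with 3.72, 3.75 and 3.71 in controls and 4.21, 4.24 and 4.40 with co-exposure. In each of these 3 genes the co-exposed arrays were above every control. On the other side, Anln read 0.49, 0.33 and 0.19 in controls and −0.60, −0.63 and −0.68 with co-exposure, a difference of −0.97 (1.96-fold, adjusted p = 2.54e-06). Racgap1, the GTPase-activating protein of the central spindle, read 1.65, 1.59 and 1.49 in controls and 0.96, 1.03 and 0.59 with co-exposure, a difference of −0.72 (adjusted p = 4.08e-05). Ccnb2 read 3.55, 3.50 and 3.34, also −0.72 from control (adjusted p = 7.74e-08). These 3 genes were below every control array.

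The 6 genes followed on every array did not share a direction against control at 24 hr of co-exposure. Ccnb1 read 1.57, 1.46 and 1.55 and was 0.17 higher (adjusted p = 0.00258), and Cdk1 read 3.69, 3.63 and 3.65 and was 0.45 higher (adjusted p = 0.0305). Cdc20 read 4.48, 4.48 and 4.36, a difference of −0.34 (adjusted p = 8.43e-05). Plk1 read 3.47, 3.57 and 3.32, a difference of −0.26 (adjusted p = 0.00119) that became 0.061 (adjusted p = 0.594) with median scaling and 0.047 (adjusted p = 0.806) with another background correction. Aurka read 4.13, 4.10 and 4.22, a difference of 0.01 from control (95% interval −0.10 to 0.11).

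Against KBrO3 alone at 24 hr, co-exposed cells again had lower mitosis gene levels. Of the 40, 37 were significantly lower and 1 was higher, where 21.9% of all genes tested were lower and 28.5% higher. The median difference was −0.71, or 1.64-fold, beside 0.01 over all genes, and 23 genes passed the Methods' thresholds against 7.43% of all genes. The comparisons with KBrO3 alone at 4 hr and at 24 hr share no array. The 34 genes lower at 4 hr were all lower at 24 hr too, which is 34 of the 34 called at 4 hr and 34 of the 37 called at 24 hr, while 10.3% of all genes tested were lower at both times. Because 37 of the 40 were lower at 24 hr, most of any 34 of them would be shared. With normexp the counts of lower genes were 20 and 30. On the 1 slide that carried both 24 hr groups, with 2 arrays of each, 39 of the 40 differences were negative and their median was −0.73. The size of the BPA-added effect differed between the times for 20 of the 40 genes, 14 toward a lower and 6 toward a higher value at 24 hr, where 57.4% of all genes tested differed. With median scaling 10 differed, all toward a higher value, with quantile normalization 24 did, of which 22 were toward a lower one, and with normexp 1 did, toward a lower one.

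Anln, Kif11 and Hmmr differed most. Anln read 0.48, 0.87 and 0.87 with KBrO3 at 24 hr, and was 2.60-fold lower in the co-exposed cells (−1.38 ± 0.10, adjusted p = 4.39e-07). Kif11, the kinesin that pushes spindle poles apart, read 0.16, 0.19 and 0.14 with KBrO3 and −0.95, −1.03 and −0.84 with co-exposure, or 2.15-fold lower (−1.11 ± 0.05, adjusted p = 8.39e-09). Hmmr read −1.41, −1.13 and −1.07 with KBrO3 and −2.28, −2.24 and −2.38 with co-exposure, or 2.14-fold lower (−1.10 ± 0.07, adjusted p = 1.89e-07). None of these 3 genes had overlapping groups. Cdc20 (−0.96), Ccnb1 (−0.81), Plk1 (−0.80), Aurka (−0.78), Top2a (−0.71) and Cdk1 (−0.53) were lower as well, with adjusted p values of 3.98e-08, 2.46e-08, 2.91e-07, 1.25e-07, 3.59e-06 and 0.0220. Pttg1 was the 1 gene that was higher, with 4.11, 3.99 and 3.95 after KBrO3 and 4.21, 4.24 and 4.40 after co-exposure, a difference of 0.27 ± 0.05 (adjusted p = 0.00148). Mad2l1 (−0.27) and Aurkb (−0.34) did not pass the test.

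From 4 hr to 24 hr of co-exposure all 40 genes rose, where 37.1% of all genes were higher and 47.4% lower. Their median rise was 1.18, and 35 genes passed the Methods' thresholds against 34.7% of all genes. Cdc25b rose by 2.52, Plk1 by 2.26 and Ect2 by 2.03 on the log2 scale. The smallest rise was in Ccnb2, by 0.53.

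BPA alone was measured in the second set, against that set's own controls. At 4 hr, 4 of the 40 genes were significantly lower and none higher, where 1.67% of 15736 genes tested were lower and 3.01% higher. The median difference was −0.59 beside −0.06 over all genes, with 37 of the 40 differences below 0, against 55% of all genes. Without adjustment for the number of probes, 25 were lower and 1 was higher at a p of 0.05, against 10.7% and 9.54% of all genes. None of the 40 passed the Methods' thresholds, which 0.114% of all genes passed. The count of 4 was not stable, with 0 genes left when control replicate 2, control replicate 3 or BPA 4 hr replicate 1 was omitted, 1 without BPA 4 hr replicate 2 or 3, and 8 when the probes of a gene were averaged.

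The 4 genes act at the spindle, the kinetochore and the cleavage furrow. Hmmr read −1.53, −0.99 and −0.30 in controls and −1.91, −2.36 and −2.53 with BPA, a difference of −1.33 ± 0.31 (2.51-fold, adjusted p = 0.0471). Ect2 read 3.27, 3.29 and 3.20 in controls and 2.15, 2.58 and 2.23 with BPA, a difference of −0.93 ± 0.19 (1.91-fold, adjusted p = 0.0268). Kif23, the central spindle kinesin, read 1.99, 2.41 and 2.23 in controls and 1.53, 1.26 and 1.13 with BPA, a difference of −0.90 ± 0.20 (1.87-fold, adjusted p = 0.0372). Every BPA array lay below every control array in these genes. Cenpf read 3.21, 3.16 and 3.06 in controls and 2.26, 2.39 and 2.43 with BPA, again without overlap, a difference of −0.78 ± 0.17 (1.72-fold, adjusted p = 0.0352).

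At 24 hr of BPA alone, 1 of the 40 genes was significantly lower and none higher, where 2.5% of all genes were lower and 1.83% higher. The summed fibroblast markers read 9.66 to 9.84 in these controls, 9.61 to 9.84 with BPA at 4 hr and 9.33 to 9.56 at 24 hr, where they did not overlap the controls, and the part of this in the result was not tested. The gene called was Kif23, at 1.02, 1.22 and 1.20 below all 3 controls, a difference of −1.06 ± 0.20 (2.09-fold, adjusted p = 0.0235). It did not pass when control replicate 2 or 3 or BPA 24 hr replicate 1 or 2 was omitted. The median difference was −0.52 beside 0.02 over all genes, with 37 of the 40 below 0, against 48.1% of all genes, and 19 lower at an unadjusted p of 0.05, against 10.4%. No gene of the 40 passed the Methods' thresholds, which 0.0318% of all genes passed. Slides in this set carried both groups in part, and within the 2 slides with 1 BPA 24 hr and 1 control array each, 36 and 33 of the 40 differences were negative.

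The 6 genes followed throughout did not pass the test with BPA alone. Plk1 read 3.52, 3.97 and 3.14 in controls, 2.74, 2.73 and 2.66 at 4 hr and 3.17, 2.95 and 2.77 at 24 hr, so that only the 4 hr arrays were apart from control (−0.83, adjusted p = 0.0901). Ccnb1 read 1.41, 1.81 and 1.89 in controls, 0.89, 1.01 and 0.98 at 4 hr and 1.12, 1.43 and 0.98 at 24 hr (−0.74 at 4 hr, adjusted p = 0.0849). Cdk1 read 3.52, 3.49 and 3.39 in controls, 2.91, 3.18 and 2.96 at 4 hr and 3.11, 2.44 and 3.02 at 24 hr (−0.61 at 24 hr, adjusted p = 0.176). The controls of Plk1 and Ccnb1 spread over a wider range than the first set's controls did. Top2a read 2.13, 2.16 and 2.44 in controls, 1.88, 1.43 and 1.45 at 4 hr and 1.81, 1.65 and 2.13 at 24 hr (−0.66 at 4 hr, adjusted p = 0.138). Aurka read 4.06, 4.56 and 4.00 in controls, 3.65, 3.99 and 3.80 at 4 hr and 4.02, 4.13 and 3.72 at 24 hr (−0.39 at 4 hr, adjusted p = 0.386). Cdc20 read 4.60, 4.83 and 4.24 in controls, 3.73, 4.12 and 4.12 at 4 hr and 4.25, 4.10 and 3.71 at 24 hr (−0.56 at 4 hr, adjusted p = 0.233). At 24 hr the BPA arrays overlapped the controls for Aurka and Cdc20. Pttg1 was the gene farthest above control, at 3.17, 3.01 and 2.47 in controls and 3.26, 3.75 and 3.72 at 4 hr, a difference of 0.69 (adjusted p = 0.163).

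The effect of BPA added to KBrO3 was then set against the effect of BPA alone, each within its own set. At 4 hr, 2 of the 40 effects differed, where 10% of 14031 genes did. Espl1 fell by 0.27 on the log2 scale when BPA was added and read −1.13 from control (adjusted p = 0.0589) with BPA alone, a difference between effects of 0.87. Pttg1 was level when BPA was added (−0.04) and read 0.69 with BPA alone, a difference of −0.73. At 24 hr, 1 of the 40 effects differed, where 3.41% of all genes did. It was that of Cenpe, −0.83 with BPA added and 0.04 with BPA alone, a difference of −0.87. At an unadjusted p of 0.05 the counts were 10 and 7, against 26.7% and 15.3% of all genes. For the other genes a missed threshold does not show that BPA acted alike in both settings, since the second set was the noisier.

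**Figure D4:**
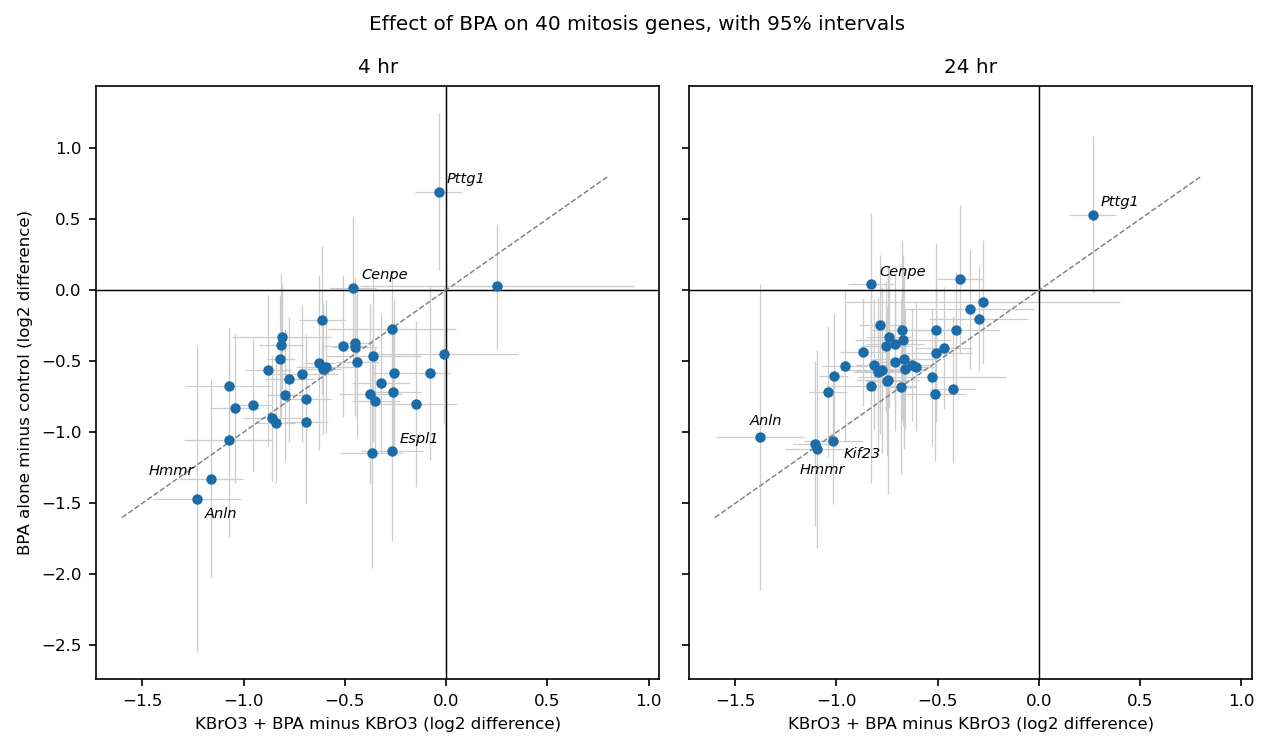
For each of the 40 mitosis genes, the log2 difference between KBrO3 + BPA and KBrO3 alone (x axis, first set) against that between BPA alone and control (y axis, second set) at 4 hr (left) and 24 hr (right), with 95% intervals as grey bars and equality as a dashed line. Most genes lie in the lower left, with both differences below 0, the vertical intervals are the wider ones, and Pttg1 lies above 0 on the y axis at both times.

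Regulators of these genes were called in both directions. Of 29 listed, 28 were tested, and 14 were higher and 11 lower with KBrO3 at 4 hr, 17 higher and 6 lower with KBrO3 at 24 hr, 14 higher and 12 lower with co-exposure at 4 hr and 17 higher and 6 lower with co-exposure at 24 hr. Of all genes tested, 34.5% were higher and 38.2% lower, 31.3% and 38.1%, 39.7% and 40.7%, and 34.5% and 38% in these 4 comparisons, and at 4 hr the share of regulators that were lower was near that of all genes. Cdkn1a, the p21 inhibitor of cyclin-dependent kinases, rose by 3.08 with KBrO3 at 4 hr (8.47-fold, adjusted p = 3.61e-12) and by 1.13 at 24 hr. With co-exposure it rose by 2.92 at 4 hr and by 2.78 at 24 hr, where it was 1.65 above KBrO3 alone (adjusted p = 7.65e-09). With BPA alone it read 0.64 (adjusted p = 0.202) and 1.04 (adjusted p = 0.0589). Gadd45a, a stress protein that can inhibit Cdk1, rose with BPA alone by 2.14 at 4 hr (adjusted p = 0.00323) and by 2.36 at 24 hr (adjusted p = 0.0041), and was the 1 regulator to pass at each time. It was also 1.56 above KBrO3 alone at 4 hr of co-exposure and 1.70 above it at 24 hr, where KBrO3 alone was at −0.67 from control (adjusted p = 7.64e-06) and co-exposure at 1.03 (adjusted p = 1.24e-07).

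Foxm1, the activator of G2 and M phase genes, was below control at 4 hr and above it at 24 hr in the first set. It was −0.48 from control with KBrO3 at 4 hr and 0.98 at 24 hr, and −0.71 and 0.35 with co-exposure. Relative to KBrO3 alone it was −0.23 at 4 hr and −0.63 at 24 hr with BPA added, and each of these 6 differences passed the test. With BPA alone for 4 hr it read −0.47 (adjusted p = 0.306), and for 24 hr −0.41 (adjusted p = 0.379). Mybl2, which encodes B-Myb and is itself an E2F target, was above control in each treated group of the first set. It rose by 0.94 with KBrO3 at 4 hr, 1.45 at 24 hr, 0.88 with co-exposure at 4 hr and 1.70 at 24 hr. With BPA alone it was 1.24-fold higher at 4 hr and 1.13-fold higher at 24 hr and did not pass the test. Wee1, a kinase that holds Cdk1 inactive, read 0.11 (adjusted p = 0.536) with KBrO3 at 4 hr and rose by 0.54 at 24 hr, and with BPA added at 24 hr it was at −0.96 from KBrO3 alone (adjusted p = 0.000208). Pkmyt1, the membrane-bound kinase of the same kind, read 0.05 (adjusted p = 0.509) with KBrO3 at 4 hr and fell by 0.23 at 24 hr. Larger changes at 4 hr of KBrO3 were seen in Cdc25a, the phosphatase of S phase entry, at 1.83, and in Rbl2, the p130 subunit of DREAM, at −1.72. Chek2, a checkpoint kinase, was at −1.37, and Rbl1, the p107 pocket protein, at −1.20.

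Another 65 genes of mitosis were listed, of which 61 were tested. With KBrO3 at 4 hr, 42 were lower and 7 higher, and at 24 hr 54 were higher and 4 lower. With co-exposure 49 were lower and 5 higher at 4 hr, and 35 were higher and 17 lower at 24 hr. Against KBrO3 alone, 37 were lower and 8 higher at 4 hr, and 43 lower and 5 higher at 24 hr. Of all genes tested, 38.2% were lower with KBrO3 at 4 hr and 31.3% higher at 24 hr, 40.7% were lower and 34.5% higher with co-exposure at these times, and 32.7% and 21.9% were lower than with KBrO3 alone. Pimreg, a regulator of the metaphase-anaphase transition, was at −2.29 with KBrO3 at 4 hr, Oip5, which helps to load Cenpa, at −2.06, and Aspm, a spindle pole protein, at −1.88. Each was a larger drop than that of Kif2c, and only that of Pimreg was larger than the −2.23 of a second probe for Kif11. At 24 hr Kif18b, a microtubule-depolymerizing kinesin, rose by 1.29, Fbxo5, the Emi1 inhibitor of the anaphase-promoting complex, by 1.22, and Haspin, the histone H3 kinase of mitosis, by 1.21. Psrc1, a microtubule-binding protein, was at −1.22 from KBrO3 alone at 4 hr of co-exposure and at 0.97 from it at 24 hr, and both differences passed the test.

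Genes of DNA replication, which act in S phase, were called in both directions at 4 hr. Of 47 tested, 25 were higher and 16 lower with KBrO3 at 4 hr, with a median of 0.25 beside −0.79 for the 40 mitosis genes and 0.02 over all genes, of which 34.5% were higher and 38.2% lower. Orc1, the largest subunit of the origin recognition complex, rose by 2.66, Rrm2, the ribonucleotide reductase subunit, by 1.63, and Ccne1, cyclin E1, by 1.55. Tk1, the thymidine kinase of S phase, was among those that fell, by 1.62. At 24 hr 31 were higher and 8 lower with KBrO3, against 31.3% and 38.1% of all genes, and 34 higher and 3 lower with co-exposure, against 34.5% and 38%. At 4 hr of co-exposure 23 were higher and 18 lower, against 39.7% and 40.7%. With BPA alone none of the 47 passed the test at either time.

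Of the 40 genes, 20 had more than 1 tested probe, with 26 probes beside the ones used above. The sign of the other probe was that of the one used in 24 of 26 cases with KBrO3 at 4 hr, 23 at 24 hr, 25 with co-exposure at 4 hr and 18 at 24 hr, and no gene had probes significant in opposite directions. The size differed for some genes. A second Kif11 probe read −2.23 from control with KBrO3 at 4 hr beside −0.80, and −3.39 with co-exposure at 4 hr beside −1.49. A second Top2a probe read −0.61 with KBrO3 at 4 hr and passed the test, where the one used read 0.08. A second Racgap1 probe rose by 1.12 with KBrO3 at 24 hr, where the one used read 0.11, and a second Cdk1 probe read 0.26 beside 0.98 and did not pass. With BPA alone, a second Cenpf probe was at −1.40 at 4 hr and −1.28 at 24 hr and passed at both times.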

How the data were processed

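RNA from Ku70-/- MEFs was hybridized to 24 one-color Agilent arrays, 1 biological replicate on each, 3 per group. The values are spot intensity values deposited by the authors as output of Agilent Feature Extraction, version 9.5.3.1 in the first set and 12.0.0.7 in the second per the file headers, detrended within an array and not normalized between arrays. All 1080432 values of the series table deposited by the authors equal the scanner signal. The 40 genes and the other gene lists were chosen with earlier results of these data known, so that no count over a list is independent evidence.

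Processed signals were converted to log2, and the 75th percentile of the non-control spots of the same array was taken off. Outlier spots were left out and spots of 1 probe averaged. Testing in a set required a signal well above background on all arrays of 1 or more groups, and the probe with the highest mean stood for its gene (14097 protein-coding genes in the first set, 15736 in the second, 14031 where effects in both sets were compared). Each set was fitted with all its groups in limma 3.58.1 (lmFit and eBayes, R 4.3.3). P-values were two-sided and adjusted by Benjamini-Hochberg over every probe tested, and an adjusted p below 0.05 was called. The probes tested numbered 27310 in the first set, 31806 in the second and 27180 where effects in both sets were compared. The Methods' thresholds were a Bonferroni-adjusted p below 0.01, over the same probes, and a change beyond 1.5-fold. Ccnb1, Cdk1, Plk1, Aurka, Cdc20 and Top2a were described on every array, as were up to 3 genes with the largest rise and the largest fall in a comparison, and any other gene named was chosen after its values were seen. Foxm1, Mybl2, Wee1, Pkmyt1 and Cdkn1a, and up to 5 others by size, were named from the other lists. Tables were read with Python 3.11.15, pandas 2.3.3, numpy 2.4.6 and the R package data.table, version 1.17.8. The fit was tested on simulated data.

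Alternatives were quantile or median scaling, normexp background correction (with the median signal in the second set, whose deposited files hold no mean signal), the deposited series table, other filters on dim probes, the mean over probes, fits on the compared arrays only, error weights, the slide as a block, the replicate number as a block, and each array left out. The replicate numbers were checked as pairs. Between same-numbered arrays the mean r of residuals was −0.03 for set 1 (−0.21 to 0.11 over 30 pairs) and 0.00198 for set 2 (−0.38 to 0.65 over 9 pairs), so the numbers do not pair samples. Precision is limited by 3 arrays per group.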

Additional observations from a re-analysis of the deposited data

Results flagged for a closer look

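The effect of BPA added to KBrO3 differed between 24 hr and 4 hr for 20 of the 40 mitosis genes by a test of the difference itself, where 57.4% of all genes tested did. For 14 of them the effect was more negative at 24 hr, with differences in log2 units of −0.63 for Ttk, −0.52 for Cenpf, −0.43 for Kif2c, −0.41 for Kif11 and for Espl1, −0.39 for Top2a, −0.38 for Bub1b, −0.37 for Cenpe, −0.31 for Ccna2, −0.29 for Cdc25c, −0.28 for Aurka, −0.26 for Ccnb2, −0.20 for Prc1 and −0.18 for Nuf2. For the other 6 it was less negative or more positive at 24 hr, with 0.18 for Ect2, 0.22 for Birc5, 0.25 for Plk1, 0.30 for Pttg1, 0.51 for Incenp and 0.67 for Cdc25b. The direction depends on the scaling, since 10 genes were called with median scaling, all of them toward a less negative effect at 24 hr, 24 with quantile normalization, 22 of them toward a more negative one, and 1 with normexp, toward a more negative one.

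The effect of BPA added to KBrO3 differed from the effect of BPA alone for 2 of the 40 genes at 4 hr, by −0.73 for Pttg1 and 0.87 for Espl1, and for 1 gene at 24 hr, by −0.87 for Cenpe, where 10% and 3.41% of all genes tested did. The arrays behind the 2 effects come from different sets, so set and setting cannot be told apart in these differences. No gene of the 40 passed the Methods' thresholds in any of these tests of a difference.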

How the results depend on the processing

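Counts of the mitosis genes past an adjusted p of 0.05 are given here. With each array left out in turn, they ranged from 36 to 37 for KBrO3 at 4 hr against control, 35 to 37 at 24 hr, 38 to 39 for KBrO3 + BPA at 4 hr, 27 to 31 at 24 hr, 34 to 36 for KBrO3 + BPA against KBrO3 at 4 hr and 36 to 38 at 24 hr. They ranged from 39 to 40 between the times of KBrO3, stayed at 40 between those of KBrO3 + BPA, and ranged from 17 to 23 for the change with time of the BPA-added effect, 0 to 3 for BPA alone at 4 hr, 0 to 1 at 24 hr, and 0 to 4 at 4 hr and 0 to 1 at 24 hr for the effect of BPA added minus that of BPA alone. At 4 hr that last count of 2 was 4 without control replicate 1 of the second set, 0 without its control replicate 2 or 3 or BPA 4 hr replicate 2, and 1 without any 1 of the 3 KBrO3 4 hr arrays, KBrO3 + BPA 4 hr replicate 2 or 3, or BPA 4 hr replicate 1 or 3. At 24 hr the 1 call was lost without control replicate 2 or BPA 24 hr replicate 2 of the second set.

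Median scaling gave 10 for the change with time, 0 for BPA alone at both times, and 1 and 0 for BPA added minus alone at 4 and 24 hr. Normexp gave 20 for KBrO3 + BPA against KBrO3 at 4 hr, 1 for the change with time, and 0 for BPA alone and for BPA added minus alone at both times. BPA alone at 4 hr gave 1 with no filter and 8 with the mean over probes, and at 24 hr it gave 2 with the stricter filter, 4 with the mean over probes and 2 with slide as a random block. Both counts were 0 on the compared arrays only and with slide as a fixed block. BPA added minus alone at 4 hr gave 1 with quantile normalization, the stricter filter, the mean over probes or the random slide block, and 4 with error weights, and at 24 hr it gave 0 with the mean over probes or the compared arrays only and 4 with the random slide block. With the replicate block, BPA alone gave 0 at both times and BPA added minus alone at 4 hr gave 1, while no other count moved by 1.5 times. The Methods' thresholds gave 19 for KBrO3 at 4 hr, 19 at 24 hr, 4 for KBrO3 + BPA at 24 hr, 18 and 23 for KBrO3 + BPA against KBrO3, and 0 for the change with time, for BPA alone and for BPA added minus alone.

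Plk1 at 24 hr of KBrO3 + BPA against control (−0.26) turned to 0.061 with median scaling (adjusted p = 0.594) and 0.047 with normexp (adjusted p = 0.806), and the cause was not tested. The called values of the genes that the rule named were recomputed, and those of other genes named in the text, the other lists included, were not. Over these values and settings, 847 kept their direction and call, 72 kept their direction and lost the call, and these 2 reversed. For KBrO3 + BPA at 24 hr against control, 14 genes were higher and 16 lower, and the split was 19 and 5 with median scaling, 14 and 7 with normexp, 16 and 15 with quantile normalization and 8 and 15 with slide as a random block. Median scaling moved the median of all genes from −0.06 to 0.26 in that comparison and from 0.02 to 0.33 in the change with time. No slide held both groups of KBrO3 24 hr, KBrO3 + BPA 4 hr or KBrO3 + BPA 24 hr against control or of KBrO3 + BPA against KBrO3 at 4 hr, so a fixed slide block could not be fitted there. With slide as a random block these gave 35, 37, 23 and 31.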
